A study of Mus musculus with 49 samples.

Results

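The genes described here encode 9 receptor chains through which cytokines act on myeloid cells: Csf1r, Csf2ra, Csf2rb, Csf2rb2, Csf3r, Il3ra, Il6ra, Il6st and Ifngr1. They were found as the rows of the expression table whose Ensembl identifiers map to these symbols, 9 of 38253 genes, and no expression value was used to choose them. RNA sequencing had been done on 49 mouse samples. The 30 normal samples were bone marrow cells sorted by surface markers. The stem cell groups were LT-HSC (long-term) and ST-HSC (short-term), with 5 samples each, followed by 6 samples of the multipotent progenitor MPP. The committed progenitors were CMP (common myeloid, 5 samples), GMP (granulocyte and macrophage, 5 samples) and MEP (megakaryocyte and erythroid, 4 samples). The 19 leukaemias carried MLL-AF9 (MA9), a fusion of the genes MLL and AF9 that drives acute myeloid leukaemia, and were named for the normal cell they were started from: GMP:MA9 with 6 samples, CMP:MA9 with 4, MPP:MA9 with 6 and STHSC:MA9 with 3. All samples were labelled C57BL/6J, wild type, bone marrow and 6 to 12 weeks of age. Per the study's methods, the fusion was delivered by a retrovirus that also encodes GFP, the sorted cells were exposed to stem cell factor, IL-3 and IL-6 during transduction, and the leukaemias were bulk GFP-positive cells taken from the spleen of irradiated recipients, a tissue that the labels do not name. The leukaemia and normal samples therefore differ in fusion, virus, culture, transplantation and possibly organ at once, and these cannot be told apart. The question addressed was how far the receptor genes of a leukaemia depend on the cell it came from.

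Cytokine receptors let blood cells sense factors that keep them alive, make them divide and steer their maturation. Csf1r is the receptor tyrosine kinase for M-CSF and IL-34 and is the classical receptor of the monocyte and macrophage lineage. Csf2ra binds GM-CSF and Il3ra binds IL-3, and both alpha chains signal by pairing with the common beta chain Csf2rb. Mice have a second beta chain, Csf2rb2, which serves the IL-3 receptor. Csf3r is the G-CSF receptor of the neutrophil lineage. Il6ra binds IL-6 and needs Il6st (gp130), a chain that several cytokines of the IL-6 family share. Ifngr1 is the ligand-binding chain of the interferon-gamma receptor and works with Ifngr2. Apart from Csf1r, these receptors have no kinase of their own and signal through JAK kinases and STAT transcription factors.

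Positions are given in the mouse assembly NCBIM37 (mm9) from the GENCODE M1 annotation, as the span from the first to the last annotated exon. The gene for the M-CSF receptor, Csf1r (ENSMUSG00000024621), lies at chr18:61265226-61291803 on the + strand, and 18.5% of the 31-base windows in its exons are shared with Hmgxb3, a gene on the opposite strand that overlaps it.

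The GM-CSF and IL-3 receptor genes are spread over several chromosomes. Csf2ra (ENSMUSG00000059326) is at chr19:61300305-61304321 on the - strand and Il3ra (ENSMUSG00000068758) at chr14:15179009-15188004 on the + strand. The beta chain genes are neighbours, with Csf2rb2 (ENSMUSG00000071714) at chr15:78112947-78136052 on the - strand and Csf2rb (ENSMUSG00000071713) at chr15:78156420-78184277 on the + strand. Csf3r (ENSMUSG00000028859) is at chr4:125701794-125722219 on the + strand, Il6ra (ENSMUSG00000027947) at chr3:89673246-89717084 on the - strand, Il6st (ENSMUSG00000021756) at chr13:113265216-113297068 on the + strand and Ifngr1 (ENSMUSG00000020009) at chr10:19311755-19330035 on the + strand. In the genes other than Csf1r and the beta chains the share of windows found elsewhere was at most 3.88%.

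Csf2rb and Csf2rb2 are near-identical copies, which bears on how their reads could be divided. Their coding sequences in GENCODE M1, of 2691 and 2637 bases, aligned over 2629 positions without a gap and were identical at 2506 of them (95.3%), with an identical run of 242 bases. Of all 31-base windows in the exons, 26.9% of those of Csf2rb also occurred in Csf2rb2, and 29.5% of those of Csf2rb2 also occurred in Csf2rb. The levels of both beta chains are therefore given as uncertain in how reads were shared between them. The stretch of 90 coding bases where the beta chains differ most, at 16 positions, is printed because reads over it can separate them. It spans coding bases 308 to 397 of Csf2rb and 311 to 400 of Csf2rb2, and the capitals mark the differing bases.
Csf2rb: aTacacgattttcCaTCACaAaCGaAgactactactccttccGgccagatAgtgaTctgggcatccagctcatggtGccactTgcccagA
Csf2rb2: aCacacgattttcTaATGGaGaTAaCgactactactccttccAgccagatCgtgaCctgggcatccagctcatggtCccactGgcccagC

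Because several receptor genes were high together, the 250 bases before the RefSeq transcription start were read for the 7 genes that the RefSeq promoter table for GRCm38.p6 holds. This is a later assembly than the one used for the gene positions. Both strands were searched for AGGAAG, the core that PU.1 and other ETS factors recognise, and for TTGCNNAA, a C/EBP half-site pair. AGGAAG occurred before 5 of the 7 genes (Csf2ra, Csf2rb2, Csf3r, Il3ra and Il6ra), and in 29.5% of all 32851 windows of this length. TTGCNNAA occurred before Il3ra alone, directly next to AGGAAG, and in 9.56% of all windows. The motifs were chosen with the sequences and the expression values in view. Of the genes printed here, Csf2ra and Il6ra were called higher in 4 of 4 leukaemias and Il3ra in 2 of 4, while Csf3r and Il6st did not pass the test in any leukaemia against its normal cell. Of those not printed, Csf2rb2, with AGGAAG, was called higher in 4 of 4. Ifngr1, with no match to either motif, was called higher in STHSC:MA9, MPP:MA9 and CMP:MA9 but not in GMP:MA9. Capitals mark the motif letters, and the sequences run 5′ to 3′ on the strand of the gene up to the base before the start.
Csf2ra, chr19:61228419-61228668, - strand: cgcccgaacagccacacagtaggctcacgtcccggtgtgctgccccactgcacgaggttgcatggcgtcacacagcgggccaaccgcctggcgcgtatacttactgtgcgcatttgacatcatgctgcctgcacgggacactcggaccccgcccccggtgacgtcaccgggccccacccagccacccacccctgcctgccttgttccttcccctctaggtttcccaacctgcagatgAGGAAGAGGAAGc
Il6ra, chr3:89913197-89913446, - strand: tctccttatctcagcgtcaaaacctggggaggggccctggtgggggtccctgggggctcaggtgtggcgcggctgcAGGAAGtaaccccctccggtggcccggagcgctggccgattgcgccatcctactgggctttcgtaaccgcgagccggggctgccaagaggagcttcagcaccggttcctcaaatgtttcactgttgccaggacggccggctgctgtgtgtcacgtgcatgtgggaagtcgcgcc
Il3ra, chr14:14346245-14346494, + strand: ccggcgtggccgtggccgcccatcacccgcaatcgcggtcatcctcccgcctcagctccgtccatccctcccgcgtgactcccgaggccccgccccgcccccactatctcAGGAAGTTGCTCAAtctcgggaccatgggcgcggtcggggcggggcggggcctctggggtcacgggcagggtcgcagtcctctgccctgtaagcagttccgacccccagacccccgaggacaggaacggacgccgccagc
Csf3r, chr4:126024409-126024658, + strand: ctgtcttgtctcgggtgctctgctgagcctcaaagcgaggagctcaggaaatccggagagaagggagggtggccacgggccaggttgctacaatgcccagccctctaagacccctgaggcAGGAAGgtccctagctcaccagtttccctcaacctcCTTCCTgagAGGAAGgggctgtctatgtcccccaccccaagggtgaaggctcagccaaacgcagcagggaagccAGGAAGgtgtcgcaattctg
Il6st, chr13:112463820-112464069, + strand: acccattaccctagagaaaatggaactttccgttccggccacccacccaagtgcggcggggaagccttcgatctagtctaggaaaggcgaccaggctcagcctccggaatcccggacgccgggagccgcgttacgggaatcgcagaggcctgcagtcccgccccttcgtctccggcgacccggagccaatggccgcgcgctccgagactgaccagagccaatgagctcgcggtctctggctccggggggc
In Csf2ra, 2 copies of AGGAAG stand side by side and the nearer begins 7 bases before the start. Csf3r has 4 matches and Il6st none, and a match or its absence here describes letters only.

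Levels are given in FPKM, a unit scaled for transcript length and for the number of mapped fragments, so they can be set side by side between genes. Read totals per library were not analysed here, for which the study's methods state only a minimum, and no counting interval is given. Between 15282 and 17852 genes were above 0 in a library. The committed progenitors differed in the markers of their labels: the summed level of 8 erythroid markers was 3510 to 5453 FPKM in MEP and 51.9 to 229 FPKM in GMP, and that of 10 monocyte markers was 1314 to 2206 FPKM in GMP and 7.07 to 30.9 FPKM in MEP. The summed level of 6 stem cell markers was 182 to 665 FPKM in LT-HSC, 212 to 363 FPKM in ST-HSC and 286 to 431 FPKM in MPP, against 35.4 to 70.7 FPKM in CMP. LT-HSC and ST-HSC replicates 4 and 5 stood apart. Their summed level of 9 neutrophil markers was 8778 to 74776 FPKM. In replicates 1 to 3 it was 22.2 to 41.3 FPKM for LT-HSC and 51.7 to 1215 FPKM for ST-HSC. The erythroid sum of replicates 4 and 5 was 4487 to 51209 FPKM, against 227 to 4422 FPKM in replicates 1 to 3. There, LT-HSC replicate 1 (3806 FPKM) and ST-HSC replicate 2 (4422 FPKM) lay within the MEP range. Calls that rest on these 4 libraries are given with and without them.

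Among the normal cells, the receptor genes other than Ifngr1 were lowest in MEP and Ifngr1 was lowest in MPP. All 9 differed among the 6 normal groups (limma F test, adjusted p between 4.18e-12 and 0.000697), where 78.4% of all tested genes did. Between MEP and CMP, 8 of 9 receptor genes were lower in MEP, against 9.49% of tested genes (2.34% were higher). Between GMP and MEP, 8 of 9 were higher in GMP, against 11.2% of tested genes (9.33% were lower). Calls needed an adjusted p below 0.05 together with a change of more than 2-fold on the log2(FPKM + 1) scale, a scale on which the change of low genes is understated.

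The M-CSF receptor gene Csf1r was lowest in MEP and highest in GMP. Its levels were 0.23, 0.36, 0.11 and 0.74 FPKM in the 4 MEP samples and 25.9, 27.9, 19.6, 18.8 and 20.4 FPKM in the 5 GMP samples. In CMP they were 25.2, 32.5, 11.6, 9.89 and 10.4 FPKM, so that replicates 1 and 2 lay among the GMP values or above them and the other 3 below. MPP ranged from 5.69 to 14.2 FPKM with a median of 7.30 FPKM. In ST-HSC the levels were 1.94, 1.49, 6.58, 13.1 and 8.62 FPKM, and in LT-HSC 0.18, 0.33, 1.17, 27.6 and 9.92 FPKM. In both stem cell groups, replicates 4 and 5 held the highest values. GMP exceeded MEP by 4.12 ± 0.64 (SE) on the log2 scale (adjusted p = 4.49e-06). From CMP to MPP, the log2 difference of 0.94 ± 0.58 had an adjusted p of 0.302 and the groups overlapped.

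The chains of the GM-CSF and IL-3 receptors differed in how completely they were missing from MEP. Csf2rb was at 0.67, 0.87, 0.36 and 2.74 FPKM in MEP and at 44.4, 41.0, 44.9, 36.1 and 40.6 FPKM in GMP. That is a log2 difference of 4.40 ± 0.61 (adjusted p = 6.86e-07). Csf2ra kept 4.96, 6.38, 4.29 and 5.39 FPKM in MEP, against 33.8, 27.0, 25.3, 21.1 and 24.3 FPKM in GMP, a log2 difference of 2.12 ± 0.36 (adjusted p = 1.53e-05). In CMP, Csf2rb was at 28.8, 32.7, 15.8, 18.9 and 12.9 FPKM and Csf2ra at 15.7, 19.97, 12.0, 18.7 and 9.58 FPKM. Both sets of values lay below every GMP sample, but neither difference passed the test (adjusted p = 0.189 for Csf2rb and 0.0687 for Csf2ra). Csf2rb2 averaged 4.25 ± 0.73 FPKM (SD, n = 5) in GMP, 3.33 ± 1.01 FPKM (n = 5) in CMP, 4.82 ± 1.17 FPKM (n = 6) in MPP and 0.24 ± 0.15 FPKM (n = 4) in MEP. Il3ra was low in every normal cell, from 0.36 ± 0.18 FPKM (n = 4) in MEP to 2.85 ± 0.73 FPKM (n = 5) in CMP.

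The G-CSF receptor gene Csf3r had the highest level of the 9 genes in MPP. MPP samples ranged from 62.2 to 78.4 FPKM with a median of 65.5 FPKM, above each of the CMP values of 40.0, 42.9, 33.2, 42.1 and 17.2 FPKM. The log2 difference between CMP and MPP was -1.01 ± 0.62 with an adjusted p of 0.299 in the fit of all normal groups. In a fit of only those 2 groups the adjusted p was 0.00342. GMP held 60.7, 51.3, 58.9, 65.3 and 50.8 FPKM and MEP held 2.06, 1.13, 1.44 and 2.81 FPKM, a log2 difference of 4.38 ± 0.68 (adjusted p = 4.95e-06).

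Both chains of the IL-6 receptor were lower in MEP than in CMP. Il6st was at 0.84, 1.97, 1.88 and 1.19 FPKM in MEP, against 42.1, 43.3, 20.3, 23.4 and 18.7 FPKM in CMP, a log2 difference of -3.57 ± 0.24 (adjusted p = 1.15e-11). Il6ra was at 0.44, 0.74, 0.45 and 0.07 FPKM in MEP, against 22.2, 24.6, 11.7, 12.5 and 7.87 FPKM in CMP, a difference of -3.47 ± 0.34 (adjusted p = 9.28e-09). In CMP, replicates 1 and 2 were again the highest for both chains. GMP averaged 26.3 ± 3.3 FPKM of Il6st and 17.0 ± 2.9 FPKM of Il6ra (SD, n = 5).

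Ifngr1 followed another order. It was at 152, 143, 141, 131 and 135 FPKM in GMP, at 81.7, 85.7, 91.7 and 88.5 FPKM in MEP and at 53.5, 49.6, 66.9, 56.2 and 81.0 FPKM in CMP, and these 3 groups did not overlap. GMP exceeded CMP by 1.20 ± 0.13 on the log2 scale (adjusted p = 3.95e-08), and Ifngr1 was the single receptor gene called in that comparison, where 3.31% of tested genes were higher and 7.94% lower. MEP exceeded CMP by 0.51 ± 0.14 (adjusted p = 0.00526) and GMP exceeded MEP by 0.69 ± 0.14 (adjusted p = 0.000158), both under the fold threshold. MPP ranged from 37.0 to 46.3 FPKM. ST-HSC was at 35.2, 47.3, 41.6, 48.1 and 52.8 FPKM and LT-HSC at 68.1, 59.8, 75.7, 57.0 and 43.6 FPKM, a log2 difference of -0.42 ± 0.13 (adjusted p = 0.0417) that is also under the fold threshold. Without the neutrophil-marked libraries it was -0.70 (adjusted p = 0.00205).

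Calls between the stem cell groups and MPP depended on the 4 libraries with neutrophil markers. The step from MPP to CMP compares none of these libraries, but they enter the spread estimated in the fit of all normal groups. That step and the step from CMP to GMP were run without them only in fits of the 2 groups compared. With all libraries, none of the 9 receptor genes was called between ST-HSC and LT-HSC (1.50% of tested genes were higher and 0.768% lower), between MPP and ST-HSC (2.13% higher, 1.31% lower) or between CMP and MPP (1.49% higher, 2.83% lower). At an unadjusted p below 0.05, 1 receptor gene passed in the first of these comparisons, 2 in the second and 1 in the third. Csf3r in LT-HSC was at 1.75, 12.7 and 6.97 FPKM in replicates 1 to 3 and at 164 and 67.7 FPKM in replicates 4 and 5. In ST-HSC it was at 13.1, 31.3 and 36.5 FPKM and then at 105 and 46.1 FPKM. Csf2rb in LT-HSC was at 2.02, 3.21 and 2.84 FPKM against 62.8 and 26.5 FPKM, and in ST-HSC at 7.52, 12.3 and 17.9 FPKM against 49.4 and 29.4 FPKM. Replicates 4 and 5 both lay above replicates 1 to 3 for 7 of 9 receptor genes in LT-HSC and for 8 of 9 in ST-HSC. The same count was not made over all genes, so it does not set the receptor genes apart. Without these 4 libraries, 3 receptor genes were higher in ST-HSC than in LT-HSC: Csf3r by 1.95 (log2, adjusted p = 0.00238), Csf2rb by 1.82 (adjusted p = 0.000641) and Csf1r by 1.34 (adjusted p = 0.0317). Likewise 3 were higher in MPP than in ST-HSC: Csf3r by 1.43 (adjusted p = 0.00436), Csf1r by 1.21 (adjusted p = 0.0140) and Il6ra by 1.01 (adjusted p = 0.00455). Calls over all genes rose too. Of 12262 genes tested without these libraries, 391 were higher and 161 lower in ST-HSC against LT-HSC, in place of 185 and 95 of 12367. For MPP against ST-HSC, 403 were higher and 227 lower, in place of 263 and 162. ST-HSC against LT-HSC then sets 3 libraries against 3, with neutrophil marker sums of 51.7 to 1215 FPKM against 22.2 to 41.3 FPKM. In bulk samples such as these, fewer cells of a type and less RNA per cell cannot be told apart. The part of the neutrophil transcripts in these receptor values was not tested.

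**Figure D1:**
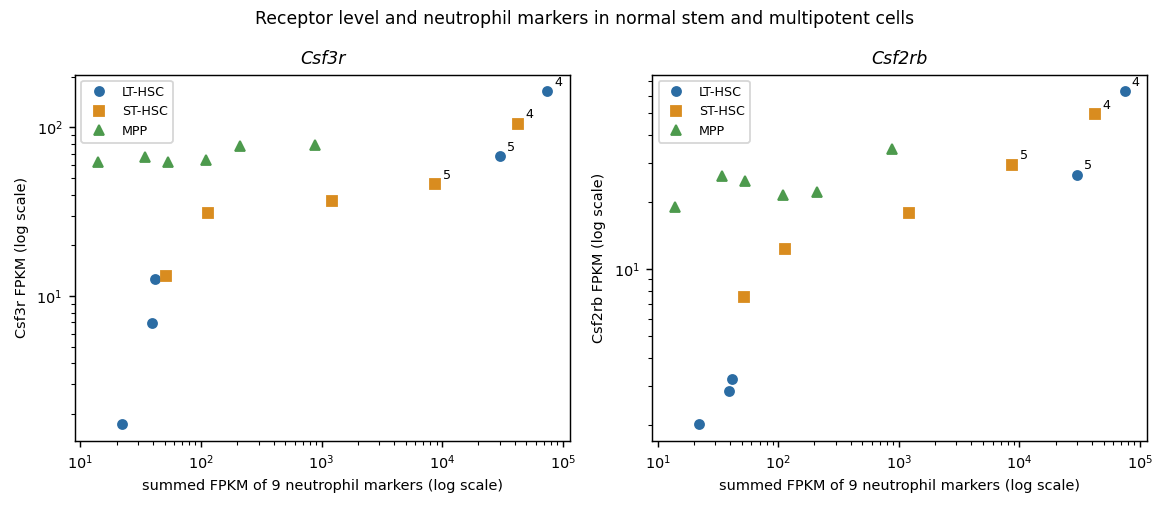
Csf3r (left) and Csf2rb (right) in FPKM against the summed FPKM of 9 neutrophil markers, both on log axes, with a point for each LT-HSC, ST-HSC and MPP library. The numbered points are LT-HSC and ST-HSC replicates 4 and 5, with marker sums of 8778 to 74776 FPKM, and they hold the highest receptor values of their groups.

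In the leukaemias, 7 of 9 receptor genes were higher than in the matching normal cell for STHSC:MA9 and MPP:MA9, 6 of 9 for CMP:MA9 and 4 of 9 for GMP:MA9, and none was lower. The share of all tested genes called higher was 12.3% for STHSC:MA9, 13.5% for MPP:MA9, 13.0% for CMP:MA9 and 13.5% for GMP:MA9, and the share called lower was 11.9%, 13.6%, 14.8% and 8.87%. The median log2 change of the 9 receptor genes was 1.80, 1.99, 2.01 and 0.97 in that order, beside -0.04, -0.09, -0.16 and 0.00 over all tested genes. Csf1r, Csf2ra, Csf2rb2 and Il6ra were called in every one of the 4 comparisons, and Csf3r and Il6st in none. Markers of mature myeloid cells were called as well. Of 9 neutrophil markers, 6 were higher in STHSC:MA9, 9 in MPP:MA9, 8 in CMP:MA9 and 2 in GMP:MA9. Of the 8 tested of 10 monocyte markers, 6, 7, 7 and 6 were higher and 1, 0, 0 and 1 lower, with Ly6c2 the most abundant. In GMP:MA9, Ly6c2 averaged 763 FPKM against 1577 FPKM in GMP. The median sum of the monocyte markers was 1357 FPKM in GMP:MA9 against 1649 FPKM in GMP. For the other origins that median was higher in the leukaemia than in its normal cell. The part of these markers in the receptor differences was not tested.

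**Figure D2:**
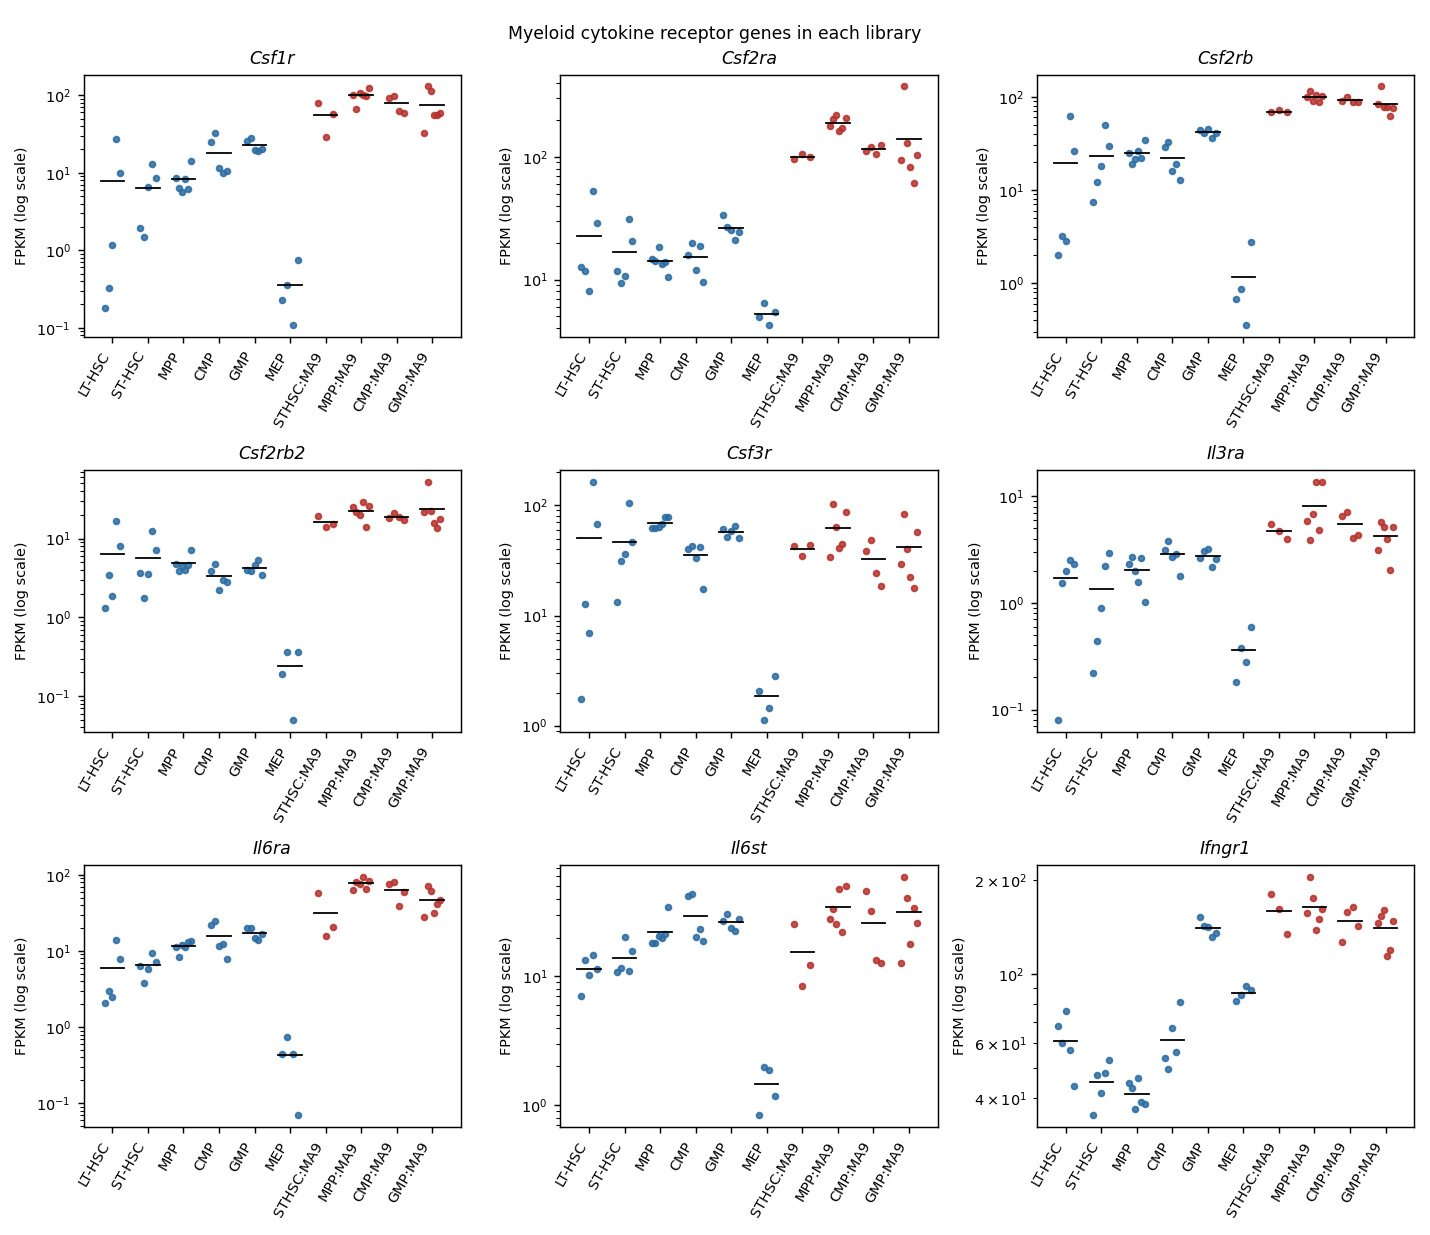
FPKM of each of the 9 receptor genes (log axis) in every library, by group. Points are libraries, blue for normal cells and red for leukaemias, and bars are group means. The 19 leukaemias lie at 61.6 FPKM or more for Csf2ra, above the highest normal library at 52.8 FPKM. For Csf3r the leukaemias (17.9 to 102 FPKM) lie within the range of all normal libraries. The top of that range is the neutrophil-marked LT-HSC replicate 4 (164 FPKM) and ST-HSC replicate 4 (105 FPKM). The highest other normal library, MPP replicate 6 (78.4 FPKM), lies below MPP:MA9 replicates 2 and 6 (102 and 87.7 FPKM) and GMP:MA9 replicate 2 (82.9 FPKM).

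Csf1r was among the largest differences. STHSC:MA9 samples held 78.2, 29.0 and 57.5 FPKM, MPP:MA9 ranged from 67.0 to 122 FPKM with a median of 100.6 FPKM, CMP:MA9 held 92.0, 98.9, 62.2 and 59.3 FPKM, and GMP:MA9 ranged from 32.4 to 129.5 FPKM with a median of 57.0 FPKM. Every leukaemia lay above every sample of its own normal cell. The log2 change was 3.12 ± 0.44 (SE) for STHSC:MA9 (adjusted p = 2.54e-07), 3.48 ± 0.35 for MPP:MA9 (7.15e-11), 2.19 ± 0.40 for CMP:MA9 (1.70e-05) and 1.53 ± 0.36 for GMP:MA9 (0.000493). Without the neutrophil-marked ST-HSC libraries, the change for STHSC:MA9 was 3.76. Across origins the change differed (limma F test, adjusted p = 0.00996, where 38.0% of all tested genes passed), smallest for GMP, the normal cell with the highest level.

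Csf2ra, the alpha chain for GM-CSF, separated all 19 leukaemias from all 30 normal samples. STHSC:MA9 held 95.5, 105 and 98.8 FPKM and CMP:MA9 held 110.3, 119, 106 and 125 FPKM. MPP:MA9 ranged from 161 to 219 FPKM with a median of 189.8 FPKM. GMP:MA9 ranged from 61.6 to 373 FPKM with a median of 98.8 FPKM, and replicate 2 alone held the top value, with the next at 129 FPKM. The log2 change was 2.65 ± 0.34 for STHSC:MA9 (adjusted p = 3.37e-08), 3.65 ± 0.26 for MPP:MA9 (2.26e-14), 2.89 ± 0.31 for CMP:MA9 (6.07e-10) and 2.11 ± 0.28 for GMP:MA9 (7.62e-08), or 1.78 for GMP:MA9 without replicate 2 and 3.13 for STHSC:MA9 without the neutrophil-marked ST-HSC libraries. The change differed among origins (F test, adjusted p = 0.0126).

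The beta chains were higher as well, Csf2rb2 in 4 comparisons and Csf2rb in 3 of them. Csf2rb was at 68.1, 71.4 and 68.4 FPKM in STHSC:MA9 and at 90.6, 98.5, 88.6 and 88.6 FPKM in CMP:MA9. MPP:MA9 ranged from 88.1 to 114.5 FPKM and GMP:MA9 from 61.7 to 129 FPKM. Its change was 1.81 ± 0.31 for STHSC:MA9 (adjusted p = 9.57e-06), 1.99 ± 0.25 for MPP:MA9 (1.06e-08) and 2.10 ± 0.29 for CMP:MA9 (1.07e-07). Without the neutrophil-marked libraries the STHSC:MA9 change was 2.45 for Csf2rb (adjusted p = 5.99e-10) and 2.13 for Csf2rb2. For GMP:MA9 the Csf2rb change was 0.97 ± 0.26 (adjusted p = 0.00167), with no overlap between the groups but just under the fold threshold, and it passed that threshold without GMP replicate 3 (1.00) or without GMP:MA9 replicate 5 (1.05). Csf2rb2 averaged 16.2 ± 2.7 FPKM (SD, n = 3) in STHSC:MA9, 22.6 ± 5.2 FPKM (n = 6) in MPP:MA9, 18.9 ± 1.5 FPKM (n = 4) in CMP:MA9 and 23.8 ± 14.5 FPKM (n = 6) in GMP:MA9, where replicate 2 held 52.7 FPKM. Its changes lay between 1.56 ± 0.33 and 2.23 ± 0.30 in the 4 comparisons, and the F test did not find them different among origins (adjusted p = 0.566). Since the copies share sequence, part of either value can be reads of the other.

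Il3ra, the alpha chain for IL-3, had the lowest mean of the 9 genes in each leukaemia group. It averaged 4.75 ± 0.78 FPKM (SD, n = 3) in STHSC:MA9, 8.14 ± 4.36 FPKM (n = 6) in MPP:MA9, 5.53 ± 1.54 FPKM (n = 4) in CMP:MA9 and 4.20 ± 1.42 FPKM (n = 6) in GMP:MA9. It was called in STHSC:MA9 (1.43 ± 0.33, adjusted p = 0.000404, or 1.93 without the neutrophil-marked libraries) and MPP:MA9 (1.49 ± 0.26, adjusted p = 5.84e-06). In CMP:MA9 the change of 0.75 ± 0.30 had an adjusted p of 0.0295 and was under the fold threshold, which it passed after a correction for GC content and length (1.04). In GMP:MA9 the change was 0.43 ± 0.27 (adjusted p = 0.173) and the groups overlapped. Whether the change differed among origins missed the threshold (F test, adjusted p = 0.0636), which it passed in 3 of 7 other settings and in 5 of 40 fits with 1 library left out.

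Csf3r, the receptor of the neutrophil lineage, was not called in any leukaemia although neutrophil markers were. STHSC:MA9 held 42.4, 34.6 and 43.4 FPKM, CMP:MA9 held 38.2, 48.7, 24.5 and 18.7 FPKM, MPP:MA9 ranged from 33.7 to 102 FPKM with a median of 54.1 FPKM and GMP:MA9 from 17.9 to 82.9 FPKM with a median of 35.0 FPKM. Each of these groups overlapped its normal cell. The log2 change was 0.09 ± 0.43 for STHSC:MA9 (adjusted p = 0.892), -0.25 ± 0.34 for MPP:MA9 (0.535), -0.13 ± 0.39 for CMP:MA9 (0.795) and -0.64 ± 0.35 for GMP:MA9 (0.122). Without the 4 neutrophil-marked libraries the change for STHSC:MA9 was 0.67 (adjusted p = 0.197). Without GMP:MA9 replicate 2, the highest of its group, the change for GMP:MA9 was -0.87 (adjusted p = 0.0335), under the fold threshold.

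The IL-6 receptor chains parted in the leukaemias, with Il6ra higher and Il6st not called. Il6ra was at 57.0, 15.9 and 20.8 FPKM in STHSC:MA9, from 63.7 to 94.3 FPKM with a median of 77.7 FPKM in MPP:MA9, at 76.7, 80.6, 39.0 and 59.3 FPKM in CMP:MA9 and from 27.9 to 71.1 FPKM with a median of 44.2 FPKM in GMP:MA9. Every leukaemia was above every sample of its normal cell. The change was 1.93 ± 0.32 for STHSC:MA9 (adjusted p = 5.69e-06), 2.64 ± 0.25 for MPP:MA9 (3.60e-11), 2.01 ± 0.30 for CMP:MA9 (4.42e-07) and 1.34 ± 0.27 for GMP:MA9 (5.82e-05). Without the neutrophil-marked libraries it was 2.16 for STHSC:MA9. It differed among origins in the F test (adjusted p = 0.0377). Il6st averaged 15.4 ± 9.0 FPKM (SD, n = 3) in STHSC:MA9, 34.5 ± 11.9 FPKM (n = 6) in MPP:MA9, 26.1 ± 16.0 FPKM (n = 4) in CMP:MA9 and 31.7 ± 16.9 FPKM (n = 6) in GMP:MA9. Its changes ran from -0.28 ± 0.36 in CMP:MA9 to 0.59 ± 0.31 in MPP:MA9 (adjusted p = 0.0955). In CMP:MA9 the Il6st values of 45.9, 32.2, 13.5 and 12.8 FPKM fell apart into replicates 1 and 2 against 3 and 4, as Csf1r did.

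Ifngr1 had group means of 140.1 to 164 FPKM in the leukaemias, while those of the matching normal cells ran from 41.3 to 140.5 FPKM. It was at 180.3, 162 and 134 FPKM in STHSC:MA9, from 138 to 205 FPKM with a median of 159 FPKM in MPP:MA9, at 126, 158, 163 and 142 FPKM in CMP:MA9 and from 114 to 161 FPKM with a median of 147 FPKM in GMP:MA9. The change was 1.80 ± 0.14 for STHSC:MA9 (adjusted p = 8.78e-13), 1.96 ± 0.11 for MPP:MA9 (5.10e-17) and 1.27 ± 0.13 for CMP:MA9 (3.90e-10). Without the neutrophil-marked libraries the STHSC:MA9 change was 1.91. Against GMP, itself at 131 to 152 FPKM, the change for GMP:MA9 was -0.01 ± 0.12 (adjusted p = 0.942). Among the 9 receptor genes, Ifngr1 had the smallest adjusted p for a change that differed among origins (F test, adjusted p = 3.97e-11). In total 5 of 9 receptor genes passed that test, where 38.0% of all tested genes did. Csf1r, Csf2ra and Ifngr1 passed with each of the 40 libraries left out in turn, whereas Il6ra did not pass in 12 and Csf2rb did not pass in 31 of these 40 fits.

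**Figure D3:**
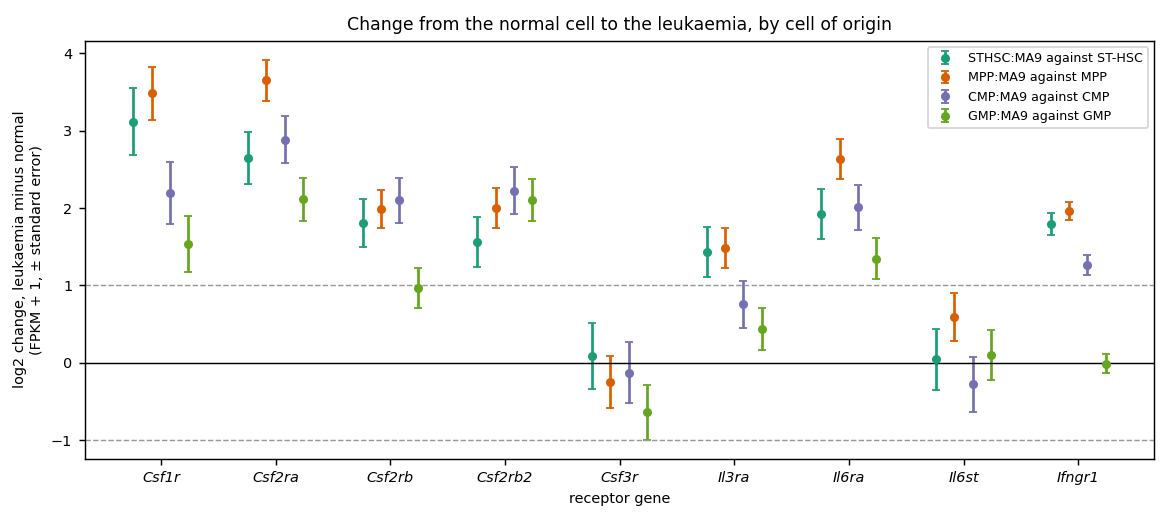
Difference between each leukaemia and its normal cell on the log2(FPKM + 1) scale for the 9 receptor genes, with standard errors, coloured by cell of origin. Dashed lines mark a 2-fold difference. Csf3r and Il6st lie between the dashed lines for every origin, from -0.64 (Csf3r, GMP:MA9) to 0.59 (Il6st, MPP:MA9). Ifngr1 lies at -0.01 for GMP:MA9 and between 1.27 and 1.96 for the other origins.

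Set against each other, the leukaemias gave few calls in these genes. A limma F test passed for 1 of 9 receptor genes, Il6ra (adjusted p = 0.0235), a share near the 13.3% of all tested genes that passed. This call held in 2 of 6 other settings and was lost with the replicate block, with the GC and length correction, with both, and with no filter on low values. Il6ra was lower in STHSC:MA9 than in MPP:MA9 by a log2 difference of -1.48 ± 0.34 (adjusted p = 0.00925), the single receptor call among the 6 pairs. Genes called in either direction made up 2.88% of those tested for STHSC:MA9 against MPP:MA9, 0.363% against CMP:MA9 and 0.536% against GMP:MA9. For MPP:MA9 they made up 0.115% against CMP:MA9 and 2.23% against GMP:MA9, and for CMP:MA9 against GMP:MA9 0.206%. The pairwise Il6ra call was lost with the correction and the block together (-1.38, adjusted p = 0.124), and it rests on few libraries. Without STHSC:MA9 replicate 2 its adjusted p was 0.0880 and without replicate 3 it was 0.0676. Without replicate 1, the highest at 57.0 FPKM, Il6ra was also called lower than in CMP:MA9 (-1.71, adjusted p = 0.0104) and than in GMP:MA9 (-1.24, adjusted p = 0.0399). Csf2ra was 0.70 ± 0.28 higher in MPP:MA9 than in GMP:MA9 (adjusted p = 0.0984), and without GMP:MA9 replicate 2 that difference was 1.04 (adjusted p = 0.000152). GMP:MA9 replicate 2 held the highest value of its group for 8 of 9 receptor genes. The same count was not made over all genes, and the summed FPKM of this library, 694414, was the lowest of all libraries. Its neutrophil marker sum of 7092 FPKM and its monocyte marker sum of 2180 FPKM compare with 1265 to 14504 FPKM and 1152 to 1550 FPKM in the other 5.

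Ratios of chains within a library do not depend on the scaling between libraries, and they are given as a description without a test. Il6ra per Il6st was between 1.20 and 4.63 in the 19 leukaemias and between 0.0588 and 0.968 in the 30 normal samples, with no overlap. The group means were 1.93 ± 0.27 (SD, n = 3) in STHSC:MA9, 2.38 ± 0.53 (n = 6) in MPP:MA9, 2.92 ± 1.25 (n = 4) in CMP:MA9 and 1.62 ± 0.38 (n = 6) in GMP:MA9. The normal means lay between 0.299 ± 0.198 (n = 4) in MEP and 0.646 ± 0.055 (n = 5) in GMP. The ligand-binding chain was thus the more abundant of the pair in every leukaemia and the less abundant in every normal sample.

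G-CSF receptor transcripts outnumbered M-CSF receptor transcripts in the normal cells matched to a leukaemia, and in most leukaemias the order was the opposite. Csf3r per Csf1r averaged 9.13 ± 2.66 (SD, n = 6) in MPP and 9.35 ± 6.61 (n = 5) in ST-HSC, 2.33 ± 1.22 (n = 5) in CMP and 2.63 ± 0.63 (n = 5) in GMP. In the leukaemias it averaged 0.831 ± 0.332 (n = 3) in STHSC:MA9, 0.674 ± 0.440 (n = 6) in MPP:MA9, 0.404 ± 0.073 (n = 4) in CMP:MA9 and 0.603 ± 0.287 (n = 6) in GMP:MA9. No leukaemia group overlapped its normal cell, although the highest leukaemia, an MPP:MA9 sample at 1.53, exceeded the lowest CMP sample at 1.32.

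The alpha chain for GM-CSF was higher relative to the beta chains in every leukaemia group than in its normal cell. Csf2ra per summed Csf2rb and Csf2rb2 was 1.17 ± 0.07 (n = 3) in STHSC:MA9 against 0.654 ± 0.224 (n = 5) in ST-HSC, 1.57 ± 0.26 (n = 6) in MPP:MA9 against 0.508 ± 0.156 (n = 6) in MPP, 1.04 ± 0.09 (n = 4) in CMP:MA9 against 0.628 ± 0.145 (n = 5) in CMP and 1.18 ± 0.47 (n = 6) in GMP:MA9 against 0.574 ± 0.079 (n = 5) in GMP. These pairs did not overlap. It was highest in MEP at 5.79 ± 3.59 (n = 4), where the beta chains were near 0. LT-HSC was next at 1.74 ± 1.23 (n = 5, from 0.664 to 3.77), above the mean of every leukaemia group, so a high ratio was not particular to the leukaemias. Il3ra per beta chain averaged between 0.0398 and 0.0658 in the leukaemias, overlapped the normal cell for 3 of 4 origins, and was lower in CMP:MA9 (0.0497 ± 0.0118, n = 4) than in CMP (0.118 ± 0.022, n = 5) without overlap. Csf2rb per Csf2rb2 ranged from 6.83 to 11.8 in GMP, with a median of 10.5 (n = 5), and averaged 3.94 in GMP:MA9 without overlap. In STHSC:MA9, MPP:MA9 and CMP:MA9 it averaged 4.37, 4.60 and 4.86, against 4.43, 5.16 and 6.46 in their normal cells, with overlap. The sum of the beta chains depends less than their ratio on how reads were divided between the copies. It is not free of that division, since FPKM is scaled by length and the copies have 5069 (Csf2rb) and 4631 (Csf2rb2) exon bases.

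Ifngr1 per Ifngr2 averaged 11.9 ± 1.5 (n = 5) in GMP and 4.01 ± 1.31 (n = 6) in GMP:MA9, with no overlap, while the other origins overlapped their normal cells. The partner chain Ifngr2 rose in GMP:MA9, from 12.0 to 38.3 FPKM on average (log2 change 1.54 ± 0.27, adjusted p = 1.12e-05), where Ifngr1 was not called.

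**Figure D4:**
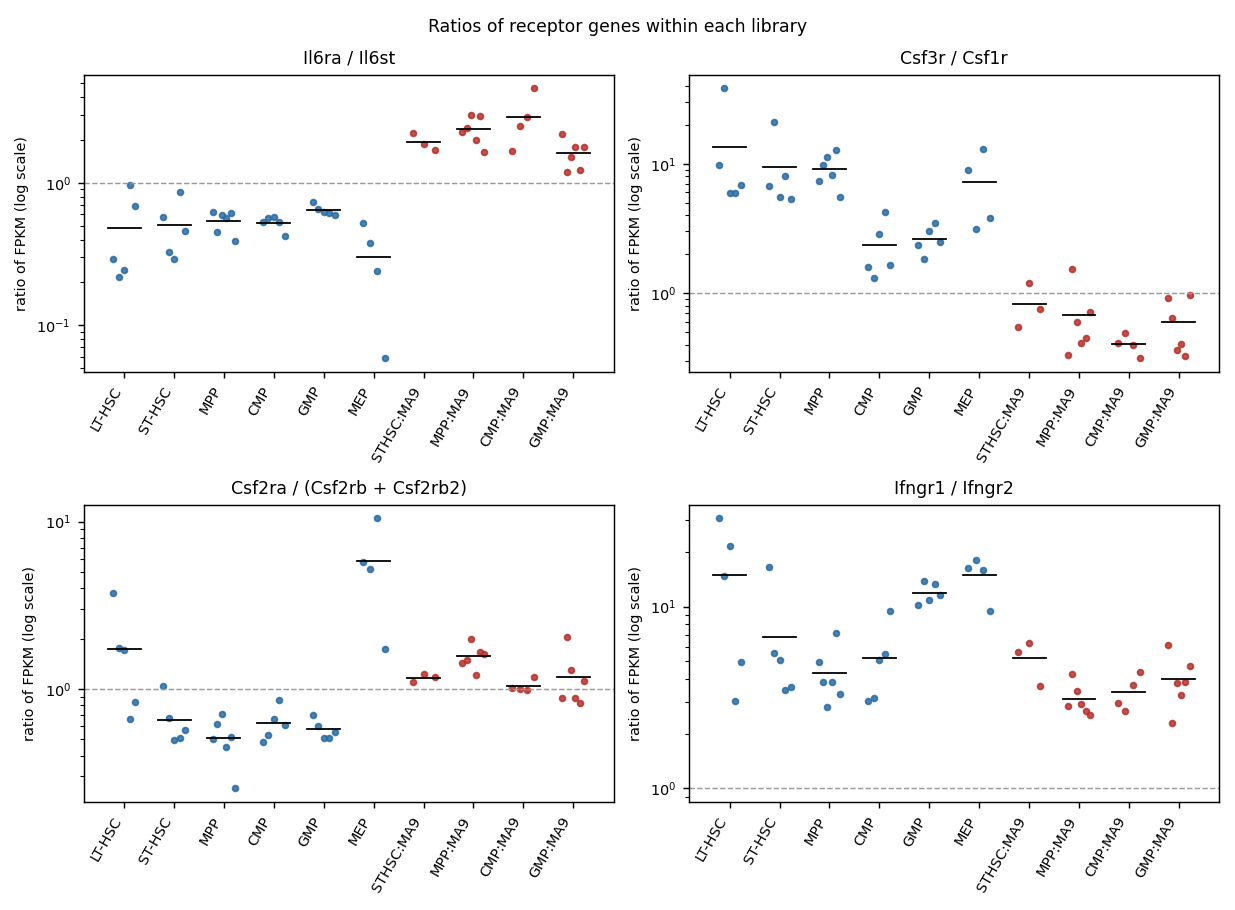
Ratio of FPKM values within each library (log axis) for Il6ra to Il6st, Csf3r to Csf1r, Csf2ra to the summed beta chains and Ifngr1 to Ifngr2, by group. Points are libraries, blue for normal cells and red for leukaemias, bars are group means and the dashed line marks equal levels. Il6ra to Il6st is above 1 in the 19 leukaemias (1.20 or more) and below 1 in the 30 normal libraries (0.968 or less).

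Transcripts of the ligands of these receptors were at low levels in the sorted cells. Of 8 ligand genes (Csf1, Il34, Csf2, Csf3, Il3, Il5, Il6 and Ifng), Csf1 alone passed the filter of a mean of 1 FPKM, at up to 3.72 FPKM, and it was not called in any leukaemia against its normal cell. Il3 was listed at 0 in all 49 samples, and the other 6 did not exceed 2.48 FPKM in any sample. Singling out Csf1 and Il3 was done after their values were seen.

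Among 9 partner and related receptors, of which 7 were tested, 2 were higher and 4 lower in each of CMP:MA9, MPP:MA9 and STHSC:MA9, and 3 were higher and 1 lower in GMP:MA9. Ifngr2 rose in all 4 comparisons, by 1.81 ± 0.33, 2.30 ± 0.26, 1.72 ± 0.30 and 1.54 ± 0.27 in the order of origins ST-HSC, MPP, CMP and GMP. Lifr, the chain that pairs with Il6st to bind leukaemia inhibitory factor, rose by 1.68 ± 0.55 (adjusted p = 0.0107, with overlapping groups), 3.35 ± 0.43, 3.67 ± 0.50 and 4.03 ± 0.45, from group means under 1 FPKM in the normal cells. Kit, the receptor of stem cell factor on which the progenitors had been sorted, fell in all 4, from 57.2 to 110 FPKM in the normal cells to between 0.853 and 2.98 FPKM in the leukaemias. Flt3, a receptor tyrosine kinase of early progenitors, rose in GMP:MA9 by 3.16 ± 0.48 (1.83 to 28.4 FPKM) and fell in MPP:MA9 by 1.76 on the log2 scale (adjusted p = 0.00114).

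Downstream of the receptors, of the 4 JAK genes, 1 was lower in STHSC:MA9, 1 was higher and 1 lower in MPP:MA9 and 0 were called in the other comparisons. Of the 4 STAT genes, 1 was lower in STHSC:MA9 and in CMP:MA9 and 0 were called in the others. Of 7 feedback inhibitors, 5 were tested, and 1, 1, 1 and 2 were higher while 2, 1, 0 and 0 were lower in the order of origins ST-HSC, MPP, CMP and GMP. The phosphatase Ptpn6 (SHP-1), which turns cytokine receptors off, rose in all 4, by 2.03 ± 0.20, 1.80 ± 0.16, 1.79 ± 0.19 and 1.03 ± 0.17. Of 6 signalling adaptors, 1, 1, 2 and 0 were higher and none was lower. Of 8 genes known to respond to these receptors, 2 were higher in each comparison, while 2, 3, 2 and 1 were lower. The D-type cyclins went opposite ways: Ccnd3 rose by 1.18 ± 0.19, 1.92 ± 0.15, 1.55 ± 0.18 and 1.96 ± 0.16, while Ccnd2 fell by 3.33, 3.73, 3.86 and 3.48 on the log2 scale. The median log2 change of these 8 genes was -0.44, -0.19, 0.07 and 0.32.

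Genes whose group means followed a receptor gene most closely were found by Pearson's r over the 10 group means of log2(FPKM + 1), among 12156 genes with a symbol and a mean of at least 1 FPKM. All such values share the contrast between leukaemias and normal cells, so they are high for many genes and are a description only. Csf1r was followed by I830077J02Rik (r = 0.991) and Pkib (0.990), and Csf2ra by Inpp4a (0.997), Map2k1 (0.993) and Fosl2 (0.991). Csf2rb was followed by Glipr1 (0.996), Tagap (0.990) and Dstyk (0.989), and Csf2rb2 by Wipf1 (0.994), 9930111J21Rik2 (0.993) and Birc3 (0.991). For Il6ra they were Sfpi1 (0.991), which encodes PU.1, Itgal (0.991) and Tnfrsf13b (0.991). For Il3ra they were Ppm1m (0.983), Fes (0.982) and Card9 (0.980). Csf3r and Il6st, not called in any leukaemia, had other neighbours: Fkbp1a (0.984), Slc16a7 (0.973) and Pcnx (0.972) for Csf3r, and Dhdh (0.973), Cd93 (0.970) and Cbfb (0.954) for Il6st. Ifngr1 was followed by 1110018G07Rik (0.973), Vps13c (0.968) and Hiatl1 (0.966).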

How the data were processed

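The authors deposited FPKM values for 38253 Ensembl genes, which the labels credit to RSEM and to the build mm9, rounded to 2 decimals. The aligner and annotation are not given in the sources used here. The table has 68 columns, of which 19 match no sample label and were not used. Values were compared as log2(FPKM + 1) with limma 3.58.1 in R 4.3.3 (trended eBayes, two-sided, Benjamini-Hochberg adjustment over all tested genes) in 3 fits: the leukaemias with their normal cells (12600 genes), the normal groups (12367 genes) and the leukaemias alone (12128 genes), each over genes whose mean reached 1 FPKM. All 9 receptor genes passed that filter.

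Groups and replicate numbers came from the labels. The study states that samples came from individual mice over repeat experiments, and no label ties a sample to an experiment, so these experiments were not fitted. Between ST-HSC and LT-HSC, deviations from the group means correlated for every replicate number (r of 0.142 to 0.683, 5 pairs). An alternative therefore added the replicate number as a block. That block is shared by all groups of a fit and does not pair ST-HSC with LT-HSC alone. The receptor genes and gene lists were chosen with earlier results of these data known. Named are the 9 receptor genes, up to 3 of the largest rises and 3 of the largest falls among called list genes for each leukaemia, the most abundant markers and the 3 genes most like each receptor gene, except 2 genes that are not reported here. Alternatives were another pseudocount, filter, scaling, set of samples, replicate block, correction for GC content and length, fold threshold and left-out libraries.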

Additional observations from a re-analysis of the deposited data

Results flagged for a closer look

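Of 81 combinations of a receptor gene with a group of 4 to 10 samples, 6 held a sample far from the others by Dixon's test, where chance gives about 1 in 20. They fell on 2 libraries. GMP:MA9 replicate 2 was far above the other 5 samples for Csf2ra (373.49 FPKM against 61.6 to 129 FPKM), Csf2rb (128.86 FPKM against 61.7 to 84.1 FPKM) and Csf2rb2 (52.67 FPKM against 13.5 to 22.3 FPKM). MPP replicate 6 was far above the other 5 for Csf1r (14.22 FPKM against 5.69 to 8.52 FPKM), Csf2rb2 (7.09 FPKM against 3.89 to 4.80 FPKM) and Il6st (34.53 FPKM against 18.0 to 21.5 FPKM). Its neutrophil marker sum was 886 FPKM, against 13.9 to 210.02 FPKM in the other MPP libraries.

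By a limma F test, 5 receptor genes changed by unequal amounts across the 4 cells of origin, where 38.0% of all tested genes passed: Ifngr1 (adjusted p = 3.97e-11), Csf1r (adjusted p = 0.00996), Csf2ra (adjusted p = 0.0126), Il6ra (adjusted p = 0.0377) and Csf2rb (adjusted p = 0.0487). With 1 of the 40 libraries left out in turn, Il6ra passed in 28 fits and Csf2rb in 9, and over 7 other settings Il6ra passed in 5 and Csf2rb in 4.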

How the results depend on the processing

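Over the alternatives, 1159 of 1179 differences of single receptor genes stayed on their side of the thresholds, as did 1403 of 1413 with 1 library left out. The sign turned in 33 of the former and 49 of the latter, and 0 of these were called differences. The counts of receptor genes called in each leukaemia against its normal cell, in GMP against MEP and in MEP against CMP stayed within 1.5 times under every alternative run. Without the 4 neutrophil-marked libraries, the count was 3 for ST-HSC against LT-HSC and 3 for MPP against ST-HSC, in place of 0, and calls over all tested genes also rose. With no fold threshold it was 1 for each of these, 1 for CMP against MPP (Ifngr1) in place of 0 and 2 for STHSC:MA9 against MPP:MA9 in place of 1. A fit of only the groups compared gave 1 for CMP against MPP (Csf3r). A correction for GC content and length gave 2 for GMP against CMP (Csf2ra added), with and without the replicate block, and the correction with the block gave 0 for STHSC:MA9 against MPP:MA9. Of the 4 leukaemias, 0 receptor genes in place of 1 differed by the F test with the GC and length correction, with that correction and the block, with the replicate block alone, and with no filter on low values, which also left 3 in place of 5 whose change differed among origins. By the labels, samples of different groups share only a number, and whether same-numbered samples share more is not given. The block alone changed no call of a single receptor gene between groups. With the correction, Il3ra in CMP:MA9 passed the fold threshold also with the block (1.01). Apart from the construction of each setting, the cause was not tested.

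With each library left out in turn, the count ranged from 0 to 2 for ST-HSC against LT-HSC (2 without LT-HSC replicate 4), from 0 to 1 for MPP:MA9 against GMP:MA9 (1 without GMP:MA9 replicate 2), from 0 to 1 for STHSC:MA9 against CMP:MA9 and against GMP:MA9 (1 without STHSC:MA9 replicate 1) and from 0 to 2 for STHSC:MA9 against MPP:MA9 (0 without STHSC:MA9 replicate 2 or 3, and 2 without replicate 1). It ranged from 0 to 3 for the F test among the 4 leukaemias (3 without GMP:MA9 replicate 2, 0 without STHSC:MA9 replicate 2 or 3). For the change that differed among origins it ranged from 3 to 6, with 3 without GMP replicates 1, 2 or 5, GMP:MA9 replicates 1, 4 or 5, MPP replicates 1, 2 or 4, or MPP:MA9 replicates 4 or 6. Reads per library were not analysed here, so no counting error is given for low values such as Il3ra in MEP.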
